A study of Mus musculus with 7 samples.

Results

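Chemokine ligands are small secreted proteins that set the direction in which leukocytes migrate, and they were described here across fibroblasts of mouse embryos (MEF), induced hepatocyte-like cells (iHep) and adult hepatocytes. The ligands were all genes whose name in the scanner files is Ccl, Cxcl, Cx3cl or Xcl followed by a digit, which gave 34 genes of 27583 genes and unnamed probes on the array. They are read by 43 probes, with 1 probe for 25 genes and more than 1 for 9 genes. The name in the files was used throughout, so platelet factor 4 appears as Cxcl4.

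RNA was measured on 7 Agilent 1-colour arrays, all from C57BL/6 mice. The 3 MEF samples were each prepared from embryos at 13.5 days post coitum. The iHep cells were made from MEFs and comprise the types 4α1, 4α2 and 4α3, with 1 array each. They are known to be fibroblasts converted by the added transcription factors Hnf4a and a Foxa factor, but the labels do not say what the last digit of a type stands for. Hepatocytes from adult liver are on 1 array. Whether embryos, animals or cultures were pooled, and how old the adult mice were, is not stated in the labels. The iHep spread is therefore a spread between types, and the hepatocyte has no spread of its own and took that of the other samples.

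Signal at the 75th percentile was lowest in the hepatocyte, at 608, and highest on MEF 2, at 1480. Between 60.2% and 68.7% of probes exceeded background clearly by the scanner software's flag, which is what "well above background" means here. MEF 2 and MEF 3 differed by 1.09, 1.11, 0.74 and 0.64 times what repeated spots on 1 array predict, from the dimmest to the brightest of 4 classes of signal, against 4.71 to 5.43 times for MEF 1 and MEF 2. They were averaged and counted as 1 sample, so n is 2 for MEF, 3 for iHep and 1 for the hepatocyte. MEF 1 and the iHep arrays share a slide, MEF 2 and MEF 3 share another, and the hepatocyte has a slide of its own, so hepatocyte and slide cannot be told apart. The labels were set against cell type markers: of 16 hepatocyte markers, 3 to 4 were well above background on the MEF arrays, 12 to 14 on the iHep arrays and all 16 on the hepatocyte array. Tdo2 and Cyp2e1, enzymes of the mature hepatocyte, were below that mark in all iHep types. All 15 fibroblast markers were well above background on every iHep array and 13 on the hepatocyte array. By the test described below, 10 of the 15 were lower in iHep than in MEF and none higher, with a median log2 difference of -2.84. Of all genes, 13.2% were lower and 10.1% higher.

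Chemokines fall into CC, CXC, CX3C and XC families by the spacing of cysteines near their start, and act through G protein-coupled receptors on leukocytes. CXC ligands with a Glu-Leu-Arg (ELR) motif attract neutrophils through CXCR2, while those without it include the interferon-inducible ligands of CXCR3, which attract T cells. Many CC ligands attract monocytes, macrophages or eosinophils, and a few guide lymphocytes and dendritic cells in lymphoid and barrier tissues. In liver, hepatocytes, sinusoidal endothelium, stellate cells and Kupffer cells, the resident macrophages, are all known sources.

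A level is the log2 processed signal minus the array's 75th percentile, so 0 stands for a probe at that percentile. Levels compare arrays for 1 probe and give no order between genes. Of the 34 ligands, 24, 24 and 25 were well above background on MEF 1, MEF 2 and MEF 3. The counts were 21, 22 and 20 on iHep 4α1, 4α2 and 4α3, and 23 on the hepatocyte array. As shares these were 58.8% to 73.5%, where 59.4% to 67.3% of all genes passed. There were 15 ligands above background on all 7 arrays and 4 on none, namely Ccl1, Ccl21c, Ccl28 and Xcl1. Ccl22 was above background only on MEF 3, at -1.99, where MEF 2 read -9.07 although both arrays count as 1 sample. These 5 ligands had no group with every array above background and were not tested, which left 29. That filter passes a ligand through the group where it is high, so the 29 are not all ligands. With ligands of near-identical copies such as Ccl21c and Ccl27, the files do not show which copy a probe reads.

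Among the 29 tested ligands, 9 were higher and 6 lower in iHep than in MEF (limma, Benjamini-Hochberg adjusted p under 0.05 over 19133 genes), where 10.1% of all tested genes were higher and 13.2% lower. As shares of the tested ligands that was 31% higher and 20.7% lower. The median ligand difference was 0.79 on the log2 scale, against -0.04 for all tested genes. All 3 iHep levels lay above every MEF array for 12 of the 29 ligands and below every one for 9. Over all tested genes those shares were 24.9% above and 31.3% below. The higher ligands were Cxcl1, Cxcl2, Cxcl5, Cxcl15, Ccl2, Ccl9, Ccl17, Ccl20 and Cx3cl1, and the lower ones Ccl3, Ccl4, Ccl8, Ccl12, Cxcl4 and Cxcl14. In the hepatocyte, 6 ligands were higher and 10 lower than in MEF, where 28.4% of all genes were higher and 25.1% lower. Their median difference was -0.93 against 0.15 for all genes. Between iHep and hepatocyte, 9 ligands were higher and 9 lower in iHep, where 22.1% of all genes were higher and 27.1% lower. These comparisons share samples and are given side by side.

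**Figure D1:**
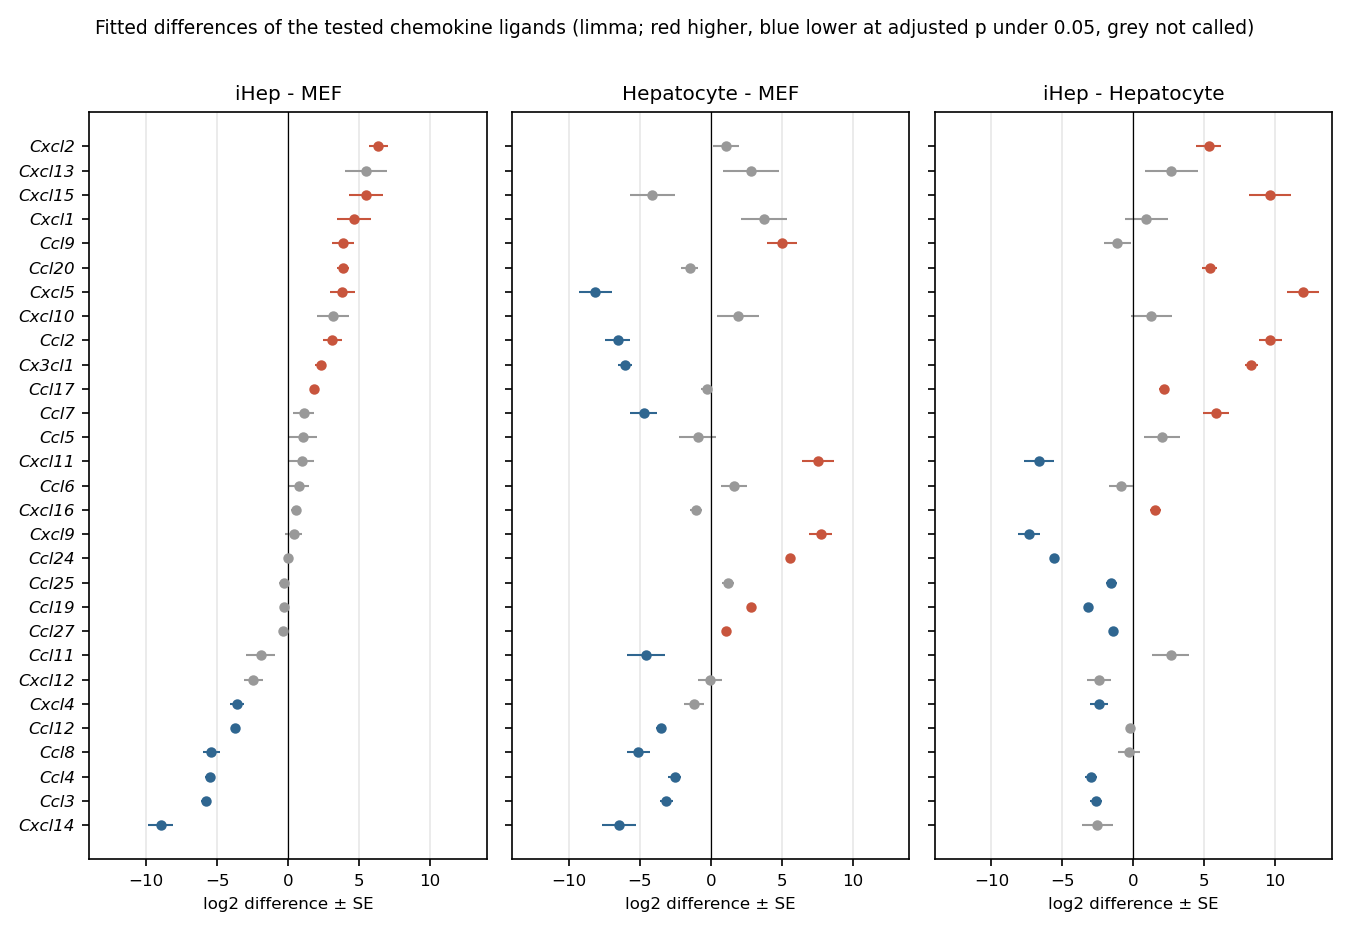
Fitted log2 differences of the 29 tested chemokine ligands with standard errors (limma), for iHep against MEF, hepatocyte against MEF, and iHep against hepatocyte. Red marks ligands called higher and blue those called lower at an adjusted p under 0.05, and the rows run in the order of the iHep against MEF difference, from Cxcl2 at 6.37 to Cxcl14 at -8.98.

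The count of higher ligands rested on few arrays. It was 4 rather than 9 within slide 1, which holds MEF 1 and the iHep arrays, and also 4 without MEF 1, without MEF 2 and MEF 3, or without iHep 4α1. The setting within slide 1 and that without MEF 2 and MEF 3 use the same MEF and iHep arrays and made the same calls in iHep against MEF. Cxcl2 and Ccl20 were called higher in every one of 16 alternative settings, among which both are counted. Cxcl1 was called in 7 of them. The 6 lower ligands became 5 within slide 1, with Cxcl4 lost.

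All 4 ELR ligands tested among the 34 genes were called higher in iHep, where 10.1% of all tested genes were. Their median difference was 5.08 on the log2 scale. Within slide 1, Cxcl2 and Cxcl5 kept that call and Cxcl1 and Cxcl15 lost it. Ppbp, an ELR ligand stored in platelets whose name falls outside the rule, lay lower in every iHep type than on every MEF array, and its difference was not called (-3.20 ± 1.15, adjusted p = 0.111). Cxcl1 and Cxcl2 are both potent neutrophil attractants made by many cells on inflammatory stimuli. The Cxcl1 level was -3.44, -2.85 and -2.74 on MEF 1, 2 and 3. It was 2.15, -0.71 and 3.23 in iHep 4α1, 4α2 and 4α3, and 0.65 in the hepatocyte. Every iHep type lay above every MEF array and 4α2 was the lowest of the types. The iHep against MEF difference was 4.67 ± 1.20 (SE), a 25.5-fold rise with adjusted p = 0.0492. That call was lost under settings as mild as quantile normalization (4.72, adjusted p = 0.0533).

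Cxcl2 did not exceed background clearly in MEF, at -6.97, -7.55 and -7.67. In iHep it reached -1.98, 0.22 and -1.01 in types 4α1, 4α2 and 4α3, all above background, and the hepatocyte level of -6.24 was not above it. So Cxcl2 was read in all iHep types and in no other sample. The fitted difference from MEF was 6.37 ± 0.68, adjusted p = 0.00491. Where a group is nowhere above background, the fold is a lower bound that sets the bright group against the higher of each dim array's own signal and its lowest signal above background. On that basis Cxcl2 was at least 39.2-fold higher in iHep than in MEF, and at least 28.5-fold higher than in the hepatocyte (adjusted p = 0.00697). With normexp background correction, which draws dim signals together, the fitted difference from MEF was 2.98 (adjusted p = 0.0132).

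Cxcl5, made mainly by epithelial cells, read 1.56, -1.51 and -1.36 on the MEF arrays and 3.82, 3.95 and 3.88 on the iHep arrays. The hepatocyte level of -8.06 was not above background. The iHep types spanned only 0.12, while MEF 1 stood above MEF 2 and MEF 3. The rise in iHep was 3.82 ± 0.88 (adjusted p = 0.0373). Against MEF 1 alone it was 2.32, with adjusted p = 0.0207. The call was lost without any 1 iHep type, at differences of 3.79 to 3.85 and adjusted p of 0.0761 to 0.0941. Cxcl5 was lower in the hepatocyte than in MEF, at least 56.6-fold (adjusted p = 0.00436), and iHep exceeded the hepatocyte at least 797.5-fold (adjusted p = 0.00133).

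Cxcl15, known as lungkine for its expression in lung epithelium, read -2.24, -5.08 and -5.30 on the MEF arrays. It read 1.86, 3.11 and 0.37 in iHep 4α1, 4α2 and 4α3, and -7.83, not above background, in the hepatocyte. Each iHep type lay above each MEF array, and MEF 1 was again the highest of the fibroblasts. The difference of 5.49 ± 1.17 had adjusted p = 0.0304, and was 4.02 within slide 1 and 6.97 without MEF 1, neither of them called (adjusted p = 0.129 and 0.0502). Cxcl15 was at least 185.8-fold higher in iHep than in the hepatocyte (adjusted p = 0.00599). In the hepatocyte Cxcl1 and Cxcl2 differed from MEF by 3.77 ± 1.61 and 1.06 ± 0.91, and neither was called (adjusted p = 0.103 and 0.369). Cxcr1 and Cxcr2, the receptors of these ligands, were not well above background on any array.

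**Figure D2:**
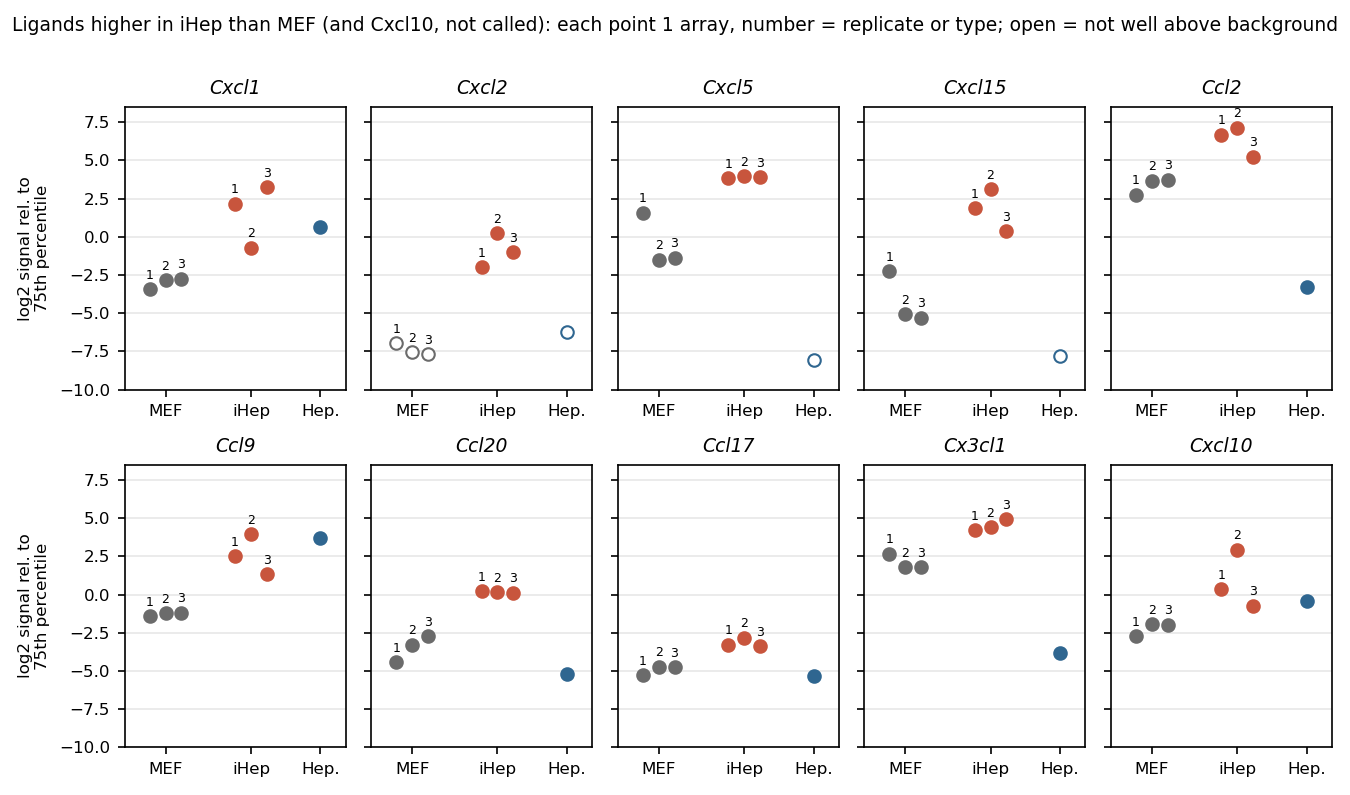
Level (log2 signal minus the 75th percentile of its array) of the 9 ligands called higher in iHep than in MEF, and of Cxcl10, which was not called. Each point is 1 array, numbers give the MEF replicate or the last digit of the iHep type, and open points were not well above background, such as Cxcl2 on the MEF and hepatocyte arrays.

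Cxcl1 and Cxcl2 lie side by side, and their promoters are shown because they hold the same run of letters of the NF-kB type at a similar distance from the start. NF-kB is the transcription factor through which inflammatory cytokines are known to induce both genes. Sequences are from RefSeq (GRCm38.p6), from 250 bases before to 50 after a gene's start, and 24 of the 34 ligands had an entry. The letters searched on both strands were GGANTTTCC, GGAANTTCC and GGGANTTCC, of which the first 2 can match at the same place. Each stretch below runs 5′ to 3′ along the gene's strand for 100 bases, with the match in capitals. Cxcl1 is at chr5:90891130-90891229 and Cxcl2 at chr5:90903758-90903857, both on the plus strand, and Ccl12, a ligand lower in iHep, is at chr11:82101745-82101844 on the plus strand.
Cxcl1: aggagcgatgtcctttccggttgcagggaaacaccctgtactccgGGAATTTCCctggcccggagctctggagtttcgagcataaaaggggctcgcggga
Cxcl2: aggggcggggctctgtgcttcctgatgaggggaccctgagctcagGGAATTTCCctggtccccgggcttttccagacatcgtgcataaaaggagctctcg
Ccl12: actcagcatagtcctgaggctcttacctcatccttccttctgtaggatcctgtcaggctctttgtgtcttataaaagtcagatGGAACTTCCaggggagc

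The capitals begin 70 bases before the start in Cxcl1, 96 in Cxcl2 and 17 in Ccl12. Of the 24 ligands with a promoter, 7 held a match of any of the 3 kinds, where 3.49% of 32851 RefSeq promoters of that length did. They were Cxcl1 and Cxcl2, called higher in iHep; Ccl12, called lower; Cxcl9, Cxcl10 and Ccl25, not called; and Ccl1, not tested. By call, that was 2 of the 7 higher ligands with a promoter and 1 of the 5 lower ones. A match is a description of letters, not a bound site.

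Genes of NF-kB and cytokine signalling were taken from a list of 36, of which 30 were tested. In iHep against MEF, 9 rose and none fell, with 21 not called and a median of 0.88 on the log2 scale against -0.04 for all genes, of which 10.1% were higher. Those that rose included feedback inhibitors of the pathway. Nfkbia, which encodes the inhibitor IκBα, read 2.37, 2.11 and 2.23 on the MEF arrays and 5.35, 5.43 and 5.58 in the iHep types, a rise of 3.18 ± 0.19 (adjusted p = 0.00107). Tnfaip3, which encodes the ubiquitin-editing inhibitor A20, rose by 4.14 ± 0.40 (adjusted p = 0.00364). Icam1, a leukocyte adhesion molecule, rose by 2.87 ± 0.51 (adjusted p = 0.0187). Nfkbie, Nfkbiz, Tnip1, Birc3, Tlr2 and Il18 were the others, with differences of 0.86 to 2.04. The subunit gene Rela differed by -0.20 ± 0.18 (adjusted p = 0.453), and Tnf by 2.72 ± 0.71 (adjusted p = 0.0513). Il1a and Il1b, which encode interleukin-1, were at -7.72 or below on every MEF and iHep array. On the hepatocyte array they read -2.83 and -1.43, both above background. In the hepatocyte against MEF the same list had 5 higher and 7 lower, beside 28.4% and 25.1% of all genes.

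**Figure D3:**
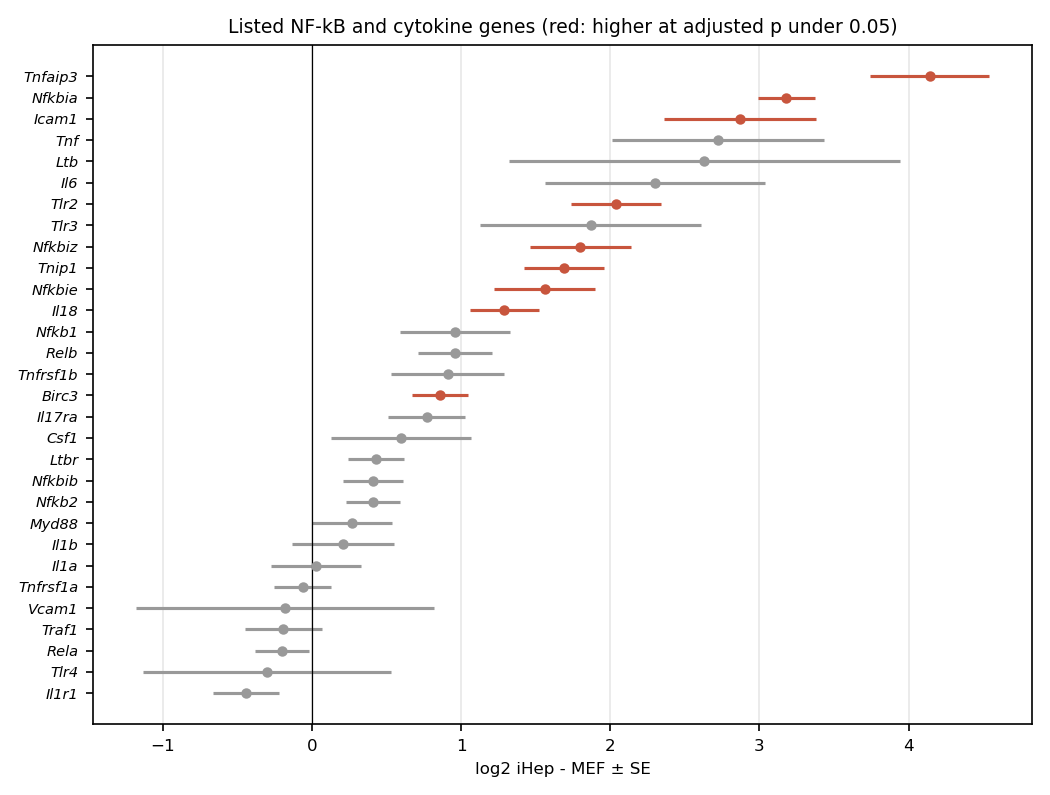
Log2 difference of iHep against MEF with standard errors (limma) for the 30 tested genes of the NF-kB and cytokine list. The 9 genes called higher at an adjusted p under 0.05 are red, from Birc3 at 0.86 to Tnfaip3 at 4.14, and none was called lower.

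CC ligands of inflammation moved both ways, with 2 of 11 tested higher and 4 lower in iHep and a median of 0.00. Over all tested genes the shares were 10.1% higher and 13.2% lower. Ccl2, the main monocyte attractant acting on CCR2, read 2.75, 3.67 and 3.74 on the MEF arrays. It read 6.67, 7.14 and 5.24 in iHep 4α1, 4α2 and 4α3, and -3.31 in the hepatocyte. The 3 kinds of sample did not overlap, with iHep highest and the hepatocyte lowest. The rise in iHep was 3.12 ± 0.65, or 8.71-fold (adjusted p = 0.0288), and it lost its call without MEF 1 (2.64, adjusted p = 0.155), without iHep 4α1 (2.96, adjusted p = 0.0829) or without 4α2 (2.73, adjusted p = 0.0594), and within slide 1 (3.60, adjusted p = 0.0915). The hepatocyte differed from MEF by -6.54 ± 0.88 (adjusted p = 0.0034) and lay 811.4-fold below iHep (adjusted p = 0.00105).

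Ccl9, a macrophage and osteoclast attractant that acts on CCR1, read -1.40, -1.20 and -1.19 on the MEF arrays. It read 2.52, 3.95 and 1.34 in iHep 4α1, 4α2 and 4α3, and 3.72 in the hepatocyte. It was called higher than MEF in iHep (3.90 ± 0.77, adjusted p = 0.025) and in the hepatocyte (5.02 ± 1.04, adjusted p = 0.0132), against the same MEF samples. The difference between iHep and hepatocyte was -1.12 ± 0.98 and was not called (adjusted p = 0.379). Both calls against MEF were lost without MEF 1, at 3.79 (adjusted p = 0.134) in iHep and 4.91 (adjusted p = 0.0577) in the hepatocyte. They were also lost without MEF 2 and MEF 3, at 4.00 (adjusted p = 0.121) and 5.12 (adjusted p = 0.0509), and that in iHep without 4α1 (3.94, adjusted p = 0.0689).

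Ccl3, Ccl4, Ccl8 and Ccl12 were the lower CC ligands. Ccl3 and Ccl4 (MIP-1α and MIP-1β) are made by activated macrophages and lymphocytes. Ccl3 read -2.63, -1.62 and -1.80 on the MEF arrays, -7.73, -8.06 and -8.10 on the iHep arrays, none above background, and -5.31 in the hepatocyte. It was at least 14.7-fold lower in iHep than in MEF (fitted -5.79 ± 0.33, adjusted p = 0.00101). Ccl4 read -2.96, -2.07 and -2.09 on the MEF arrays, -7.88, -7.96 and -8.26 in iHep, again not above background, and -5.07 in the hepatocyte. The Ccl4 bound was at least 11.6-fold lower (fitted -5.52 ± 0.32, adjusted p = 0.00105). Both were called in the hepatocyte as well, with differences from MEF of -3.14 ± 0.45 and -2.55 ± 0.43 (adjusted p = 0.00412 and 0.00715), and iHep lay below the hepatocyte for each (adjusted p = 0.00646 and 0.00424). With normexp the latter 2 calls were lost, at -0.67 and -0.76 (adjusted p = 0.0982 and 0.0926), and Ccl4 was not called in the hepatocyte against MEF (-0.95, adjusted p = 0.0559).

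Ccl8 (MCP-2) and Ccl12 (MCP-5) belong to the monocyte chemoattractant proteins with Ccl2 and Ccl7. Ccl8 read -1.04, -1.24 and -1.03 on the MEF arrays, -6.09, -5.77 and -7.63 in iHep 4α1, 4α2 and 4α3, where only 4α2 was above background, and -6.18 in the hepatocyte. The iHep difference was -5.40 ± 0.60 (adjusted p = 0.0053), and the hepatocyte was at least 25.4-fold below MEF (adjusted p = 0.00562). Ccl12 read -4.56, -4.10 and -4.22 on the MEF arrays, -7.97, -8.27 and -8.07 in iHep and -7.88 in the hepatocyte. It was above background in the fibroblasts alone, and at least 3.23-fold lower in iHep (fitted -3.74 ± 0.22, adjusted p = 0.00107). In the hepatocyte it was at least 2.63-fold lower than in MEF (adjusted p = 0.000869), a call that normexp ended (-0.47, adjusted p = 0.104).

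Cxcl4, stored in platelet granules and also transcribed in macrophages, read -2.43, -1.72 and -1.83 on the MEF arrays. In iHep it read -6.30, -6.00 and -4.86, only 4α3 being above background, and -3.27 in the hepatocyte. It fell by 3.62 in iHep on the log2 scale (SE 0.50, adjusted p = 0.00975), and was not called without MEF 1 (-3.94, adjusted p = 0.0523) or without MEF 2 and MEF 3 (-3.29, adjusted p = 0.0709). The hepatocyte did not differ from MEF by the test (-1.17 ± 0.68, adjusted p = 0.197).

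Some macrophage markers fell with these 5 ligands in iHep. Of 18 macrophage and Kupffer cell markers, 14 to 15 were well above background on the MEF arrays, 5 to 8 on the iHep arrays and all 18 on the hepatocyte array. Their log2 summed signal was 6.16 to 6.82 in MEF, 2.80 to 4.07 in iHep and 4.17 in the hepatocyte. Lyz2, at 6.02 to 6.67, made up most of the sum in MEF, and Cd14, at 2.61, 3.88 and 3.87, most of it in iHep. In iHep against MEF, 9 of the 18 were lower and 1, Cd14, was higher (4.65 ± 0.47, adjusted p = 0.00409). Of all genes, 13.2% were lower and 10.1% higher. In the hepatocyte against MEF, 5 markers were higher, 2 lower and 11 not called, beside 28.4% of all genes higher and 25.1% lower. The share of markers that was higher is near the background. Of the 5 ligands, Ccl3, Ccl4, Ccl8 and Ccl12 were called lower in the hepatocyte than in MEF, and Cxcl4 was not called. The complement gene C1qa read -0.57, 0.06 and 0.03 on the MEF arrays and -7.90, -8.21 and -8.25 in iHep, not above background, and Adgre1 and Tyrobp were likewise below that mark in all iHep types. Other markers stayed above background on all iHep arrays, though lower than in MEF. C1qb read -3.99, -3.73 and -3.35 there, and Cd68 -2.94, -2.19 and -2.50. Marco and Lyz2 were also above background on every iHep array. The pan-leukocyte gene Ptprc was at least 9.54-fold lower (adjusted p = 0.00231). With normexp the fitted differences of the ligands in iHep were smaller and still called, at -1.85 for Ccl3, -1.71 for Ccl4, -2.48 for Ccl8, -0.72 for Ccl12 and -1.54 for Cxcl4. The part of macrophage RNA in the lower ligands was not tested. In bulk samples, fewer cells of a type and less RNA per cell cannot be told apart.

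**Figure D4:**
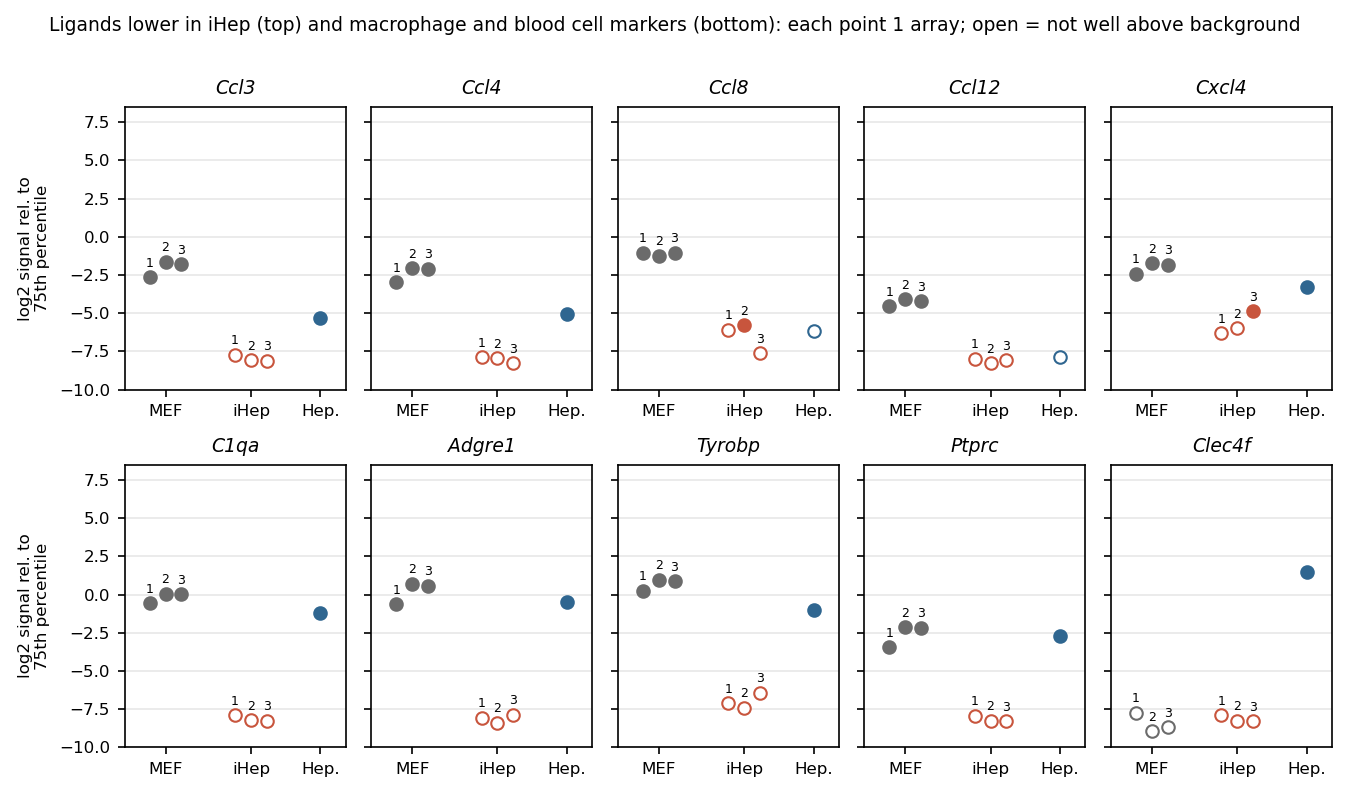
Level (log2 signal minus the 75th percentile of its array) of Ccl3, Ccl4, Ccl8, Ccl12 and Cxcl4 in the upper row, and of the macrophage and leukocyte markers C1qa, Adgre1, Tyrobp, Ptprc and Clec4f in the lower row. Each point is 1 array and open points were not well above background: on the iHep arrays the markers shown are all open, and Clec4f, a Kupffer cell gene, is filled only on the hepatocyte array at 1.46. Markers not shown, such as C1qb and Cd68, were well above background on all iHep arrays.

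The other inflammatory CC ligands were not called in iHep. Ccl7 (MCP-3) read 0.92, 1.61 and 1.67 on the MEF arrays, 3.02, 3.06 and 1.03 in iHep and -3.44 in the hepatocyte. Its iHep levels overlapped MEF (1.09 ± 0.72, adjusted p = 0.327), while the hepatocyte was lower, with a difference from MEF of -4.72 ± 0.97 (adjusted p = 0.0129). The call in the hepatocyte was lost without MEF 2 and MEF 3 (-4.36, adjusted p = 0.0567). A second Ccl7 probe, not above background in the hepatocyte, gave -9.68 for that difference. Ccl11 (eotaxin-1) read -3.25, -3.60 and -3.41 on the MEF arrays and -3.32, -6.17 and -6.43 in iHep, of which only 4α1 was above background. The hepatocyte level of -7.94 was not above background, and was at least 5.20-fold below MEF (adjusted p = 0.0396). That call was lost with normexp (-0.83, adjusted p = 0.198), without MEF 1 (-4.43, adjusted p = 0.125) and without MEF 2 and MEF 3 (-4.69, adjusted p = 0.109). Ccl5 and Ccl6 differed from MEF by 1.08 ± 0.99 and 0.79 ± 0.69 in iHep, and neither was called in any of the 3 comparisons. These values rest on single iHep types: the Ccl5 difference was 0.34 without 4α2 (adjusted p = 0.81) and 1.99 without 4α3 (adjusted p = 0.0479), and that of Ccl6 was 0.35 and 1.37. Against the hepatocyte Ccl5 was called without 4α3 (2.92, adjusted p = 0.017) and with each type as its own group (2.01, adjusted p = 0.0154). Ccl7 was likewise called higher than in MEF without 4α3 (1.76, adjusted p = 0.0285).

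Ccl24 (eotaxin-2), an eosinophil attractant acting on CCR3, was read on the hepatocyte array alone. It stood at -8.02, -7.95 and -8.78 on the MEF arrays and -8.05, -8.33 and -8.20 in iHep, none above background, and at -2.59 in the hepatocyte. It was at least 12.3-fold higher there than in MEF (adjusted p = 0.000276) and higher than in iHep, with a fitted difference of -5.60 ± 0.26 for iHep against the hepatocyte (adjusted p = 0.000252).

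Of the 3 ligands of CXCR3, which interferon induces, Cxcl9 and Cxcl11 were higher in the hepatocyte than in both other groups. Cxcl9 (MIG) read -6.85, -8.53 and -8.42 on the MEF arrays and -7.92, -6.79 and -7.08 in iHep, none above background, against 0.07 in the hepatocyte. It was at least 78.4-fold higher in the hepatocyte than in MEF (adjusted p = 0.00161) and at least 69.9-fold higher than in iHep (adjusted p = 0.00181). Cxcl11 (I-TAC) read -7.73, -8.83 and -8.60 on the MEF arrays and -7.88, -5.71 and -8.23 in iHep, where only 4α2 was above background, and -0.64 in the hepatocyte. It was at least 47.8-fold higher in the hepatocyte than in MEF (adjusted p = 0.00488), and lower in iHep than in the hepatocyte (-6.64 ± 1.08, adjusted p = 0.00696). With normexp the fitted hepatocyte differences from MEF were smaller and still called, at 3.66 for Cxcl9, 3.09 for Cxcl11 and 1.66 for Ccl24.

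Cxcl10 (IP-10), the third of these ligands, behaved otherwise and was above background on all 7 arrays. It read -2.71, -1.94 and -1.97 on the MEF arrays, 0.34, 2.94 and -0.72 in iHep 4α1, 4α2 and 4α3, and -0.42 in the hepatocyte. Every iHep type lay above MEF, with 4α2 highest, but the difference of 3.18 ± 1.12 was not called (adjusted p = 0.105). With 3 separate MEF samples it was 3.06 with adjusted p = 0.0465. The hepatocyte difference from MEF was 1.91 ± 1.50 (adjusted p = 0.326). None of the 3 CXCR3 ligands was thus called in iHep against MEF. In the hepatocyte 2 of 3 were called higher than in MEF, beside 28.4% of all genes. Cxcr3 itself was above background on MEF 2 and MEF 3 and on 2 iHep arrays, not on the hepatocyte array, and was not tested.

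The promoters of Cxcl9 and Cxcl10 are shown because Cxcl9 was called between hepatocyte and iHep while its neighbour Cxcl10 was not (1.27 ± 1.42, adjusted p = 0.487), and both hold letters of the NF-kB type GGGANTTCC, in capitals. They lie on the minus strand of GRCm38.p6, Cxcl9 at chr5:92328080-92328179 and Cxcl10 at chr5:92348938-92349037, and run 5′ to 3′ along it.
Cxcl9: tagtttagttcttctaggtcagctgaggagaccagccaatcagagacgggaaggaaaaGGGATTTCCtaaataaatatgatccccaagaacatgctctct
Cxcl10: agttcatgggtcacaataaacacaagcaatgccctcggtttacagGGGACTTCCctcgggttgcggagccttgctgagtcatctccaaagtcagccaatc

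The capitals begin 42 bases before the start in Cxcl9 and 103 in Cxcl10, and Cxcl10 has a second match of the other kinds at 158. Letters of an interferon type, GAAANNGAA, were also found in both promoters, 175 bases before the start in Cxcl9 and 213 in Cxcl10, where 8.56% of all promoters hold them. They are not particular to these ligands: 6 of the 24 ligands with a promoter hold them, the others being Ccl1, Ccl19, Ccl3 and Cxcl14, of which Ccl3 and Cxcl14 were called lower in iHep. Genes of the interferon axis were drawn from a list of 22, of which 21 were tested. In the hepatocyte against MEF, 7 were higher and 2 lower, beside 28.4% of all genes higher and 25.1% lower, so the share that was higher is near the background. They included Irf7 at 4.17 (adjusted p = 0.00874) and Rsad2 at 5.20 (adjusted p = 0.0234). The interferon gamma gene Ifng read -3.94 on the hepatocyte array, where it was -7.18 or below in every other sample. In iHep against MEF 2 of the 21 were higher and none lower, where 10.1% of all genes were higher and 13.2% lower, which again puts the higher ones near the background. The pair was Ifngr1, a receptor chain for interferon gamma (2.15 ± 0.25, adjusted p = 0.00615), and Irf7, a transcription factor of the interferon response (3.62 ± 0.56, adjusted p = 0.0129). The hepatocyte array also read all 16 endothelial markers, against 10 to 13 on MEF arrays and 7 to 8 on iHep arrays. Their log2 summed signal was 4.57 there, 2.90 to 3.35 in MEF and 1.28 to 2.77 in iHep. It also read the Kupffer cell genes Clec4f, Cd163 and Timd4, which were above background on no MEF or iHep array. Of 10 tested blood cell and lymphocyte markers, 6 were higher in the hepatocyte than in MEF and none lower. Of all genes, 28.4% were higher and 25.1% lower. The higher markers included the B cell gene Cd79b, Gzma of cytotoxic lymphocytes, and the T cell gene Cd3e, which was above background on every array. Cd3d, Cd3g, Cd8a, Cd79a and Ms4a1 were not above background on the hepatocyte array. Ptprc, at 0.10 ± 0.57 against MEF, was not called in the hepatocyte. Of all 17 markers, 9 were above background on the hepatocyte array, 5 to 9 on MEF arrays and 5 to 7 on iHep arrays. Their log2 summed signal was -0.10 in the hepatocyte, -1.52 to -0.81 in MEF and -1.84 to 0.53 in iHep. The part of these cells in the hepatocyte levels of Cxcl9, Cxcl11, Ccl24 and the other ligands was not tested.

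The remaining CXC ligands had 1 of 4 called in iHep, as lower, where 13.2% of all genes were lower and 10.1% higher. Cxcl14 (BRAK), expressed constitutively in many epithelia and stroma, read 3.82, 4.65 and 4.59 on the MEF arrays. It read -3.20, -4.99 and -6.09 in iHep 4α1, 4α2 and 4α3, the last not above background, and -2.23 in the hepatocyte. Its hepatocyte difference from MEF was -6.45 ± 1.19 (adjusted p = 0.00929) beside -8.98 ± 0.89 in iHep (adjusted p = 0.00393), and iHep and hepatocyte were not told apart by the test (-2.53 ± 1.12, adjusted p = 0.119). Cxcl12 (SDF-1), the stromal ligand of CXCR4, read 5.89, 4.83 and 4.83 on the MEF arrays, 3.06, 3.78 and 1.88 in iHep and 5.32 in the hepatocyte. A second Cxcl12 probe, above background on all 7 arrays, read 1.92 in the hepatocyte and 1.08 to 2.42 in iHep. Its hepatocyte difference from MEF was -1.76, where the brighter probe gave -0.05. By the brighter probe all iHep types lay below all MEF arrays, but the difference of -2.45 ± 0.65 missed the threshold (adjusted p = 0.0543). Under 6 of 16 alternatives it was called lower, with adjusted p from 0.0232 to 0.0499. Among the receptors, Ackr3, the atypical receptor that takes up Cxcl12, was at least 229.7-fold lower in the hepatocyte than in MEF (adjusted p = 0.00339) and differed by -2.07 ± 0.91 in iHep (adjusted p = 0.167). The receptor Cxcr4 was above background on 2 MEF arrays and on no iHep or hepatocyte array.

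Cxcl13, the B cell attractant of lymphoid follicles, varied most between types. It read -7.20, -8.21 and -6.81 on the MEF arrays, none above background. In iHep 4α1 it read 0.24, in 4α2 -4.68 and in 4α3 -1.12, all above background, and -4.52 in the hepatocyte. The types thus spanned 4.92 on the log2 scale, with 4α1 highest and 4α2 lowest. The mean of the iHep types, -1.85, was at least 20.6-fold above MEF, a bound for the mean and not for each type, as 4α2 lay below it. The fitted difference from MEF of 5.51 ± 1.48 was not called (adjusted p = 0.0553), and without 4α2 it was 6.92 with adjusted p = 0.00638.

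Cxcl16 and Cx3cl1 are the only chemokines anchored in the membrane, and are shed by ADAM proteases. Cx3cl1 (fractalkine) read 2.68, 1.81 and 1.78 on the MEF arrays, 4.23, 4.42 and 4.92 in iHep and -3.79 in the hepatocyte. It rose in iHep by 2.29 ± 0.37 (adjusted p = 0.0143), fell in the hepatocyte (-6.03 ± 0.49 against MEF, adjusted p = 0.000813), and was 317.9-fold higher in iHep than in the hepatocyte (adjusted p = 0.000357). The rise was not called within slide 1 (1.84, adjusted p = 0.0705), that is, without MEF 2 and MEF 3. With the mean of both Cx3cl1 probes the hepatocyte difference from MEF was -3.80 (adjusted p = 0.00474). Cxcl16 read 0.14, -0.28 and -0.72 in iHep against -0.84 to -0.75 in MEF and -1.85 in the hepatocyte. It was called only in iHep against the hepatocyte (1.56 ± 0.37, adjusted p = 0.0229), a call lost without either MEF sample (adjusted p = 0.0513 each) or without iHep 4α2 (adjusted p = 0.0547). A second Cxcl16 probe differed in sign for the hepatocyte against MEF, at 0.61 where the brighter probe gave -1.03. In iHep against MEF the second probe gave 1.78 and the brighter 0.53. The mean of both probes gave 1.16 there, which was not called (adjusted p = 0.0622). Adam10 and Adam17, the sheddases of these ligands, differed by 0.92 ± 0.31 and -0.15 ± 0.20 in iHep, neither called (adjusted p = 0.0927 and 0.633). Of 16 tested genes in the list for chemokine shedding and cleavage, 6 were lower and none higher in iHep than in MEF. Of all genes, 13.2% were lower and 10.1% higher. The lower genes of the list were the metalloproteinases Mmp2, Mmp9 and Mmp14, with Fap, Ctsb and Anpep.

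Among the ligands of lymphoid and barrier tissue, 2 of 5 tested rose in iHep, where 10.1% of all genes were higher. Ccl20, the ligand of CCR6 made by mucosal epithelium, read -4.43, -3.29 and -2.71 on the MEF arrays and 0.23, 0.16 and 0.11 in iHep, with -5.20 in the hepatocyte. The iHep types lay within 0.12 of each other and far above the fibroblasts, at 3.88 ± 0.44 (adjusted p = 0.00576), and 41.3-fold above the hepatocyte (adjusted p = 0.00187). Ccl17, a ligand of CCR4 made by dendritic cells, read -5.27, -4.73 and -4.76 on the MEF arrays, -3.28, -2.82 and -3.39 in iHep and -5.30 in the hepatocyte. Its rise was 1.84 ± 0.28 (adjusted p = 0.0126), and was not called without MEF 1 (1.58, adjusted p = 0.0786). With normexp the rise was 0.73 (adjusted p = 0.0398).

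Ccl19 and Ccl27 were instead higher in the hepatocyte. Ccl19, the CCR7 ligand of lymphoid stroma, read -4.33, -4.09 and -4.00 on the MEF arrays, -4.46, -4.68 and -4.39 in iHep and -1.35 in the hepatocyte. The hepatocyte exceeded MEF by 2.84 ± 0.27 (adjusted p = 0.00129). In iHep against MEF its probes differed in sign, at -0.32 and 0.58. Ccl27, a skin ligand of CCR10, read -0.59, -0.47 and -0.46 on the MEF arrays, -0.60, -1.15 and -0.91 in iHep and 0.56 in the hepatocyte. Its difference of 1.09 ± 0.31 in the hepatocyte (adjusted p = 0.0352) was lost under 5 of 15 settings, median scaling among them (1.03, adjusted p = 0.0526), and without MEF 1 (1.03, adjusted p = 0.115) or MEF 2 and MEF 3 (1.16, adjusted p = 0.0881). Ccl25, the gut ligand of CCR9, was called only in iHep against the hepatocyte, at -1.54 ± 0.41 (adjusted p = 0.0316). That call was lost without iHep 4α1 (-1.41, adjusted p = 0.0764) and without 4α2 (-1.46, adjusted p = 0.0731).

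Of the 24 receptor genes, 12 were tested. In iHep against MEF, 2 were lower and none higher, where 13.2% of all genes were lower and 10.1% higher. The share that was lower is near the background. Cxcr6, the receptor of Cxcl16, read -2.01, -1.36 and -1.34 on the MEF arrays and was not above background in iHep or the hepatocyte, at least 20.7-fold lower in iHep (adjusted p = 0.0102). Ackr4, a scavenger of CC ligands such as Ccl19, was at least 4.12-fold lower in iHep (adjusted p = 0.00126). In the hepatocyte 6 receptors were higher and 2 lower than in MEF, beside 28.4% and 25.1% of all genes. The CC receptors Ccr1, Ccr2, Ccr4, Ccr7 and Ccr8 were not well above background on any array.

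Many ligands lie in clusters, and those on chromosomes 5 and 11 held both higher and lower ligands. On chromosome 5 (mm8, the build of the array annotation), the probes of Cxcl5 (chr5:91836379-91836438), Cxcl4 (chr5:91848449-91848508), Cxcl15 (chr5:91870518-91873191), Cxcl1 (chr5:91968019-91968078) and Cxcl2 (chr5:91980708-91980767) span 144.4 kb. In iHep 4 of these 5 rose, and Cxcl4, which lies between Cxcl5 and Cxcl15, fell. Beside them, 10.1% of all genes were higher and 13.2% lower in iHep than in MEF. The CXCR3 ligands form a second group of 38.1 kb on the same chromosome, where Cxcl9 (chr5:93398365-93398424) is followed by Cxcl10 and Cxcl11. On chromosome 11 the stretch from Ccl2 (chr11:81853343-81853402) to Ccl1 covers 139.7 kb and 6 ligands, of which Ccl2 rose and Ccl12 and Ccl8 fell. The stretch from Ccl5 to Ccl4 (chr11:83480745-83480804) covers 138.8 kb and 5 ligands, of which Ccl9 (chr11:83390916-83390975) rose and Ccl3 and Ccl4 fell. On chromosome 8, Ccl22, Cx3cl1 and Ccl17 lie within 61.1 kb, and Cx3cl1 and Ccl17 rose.

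**Figure D5:**
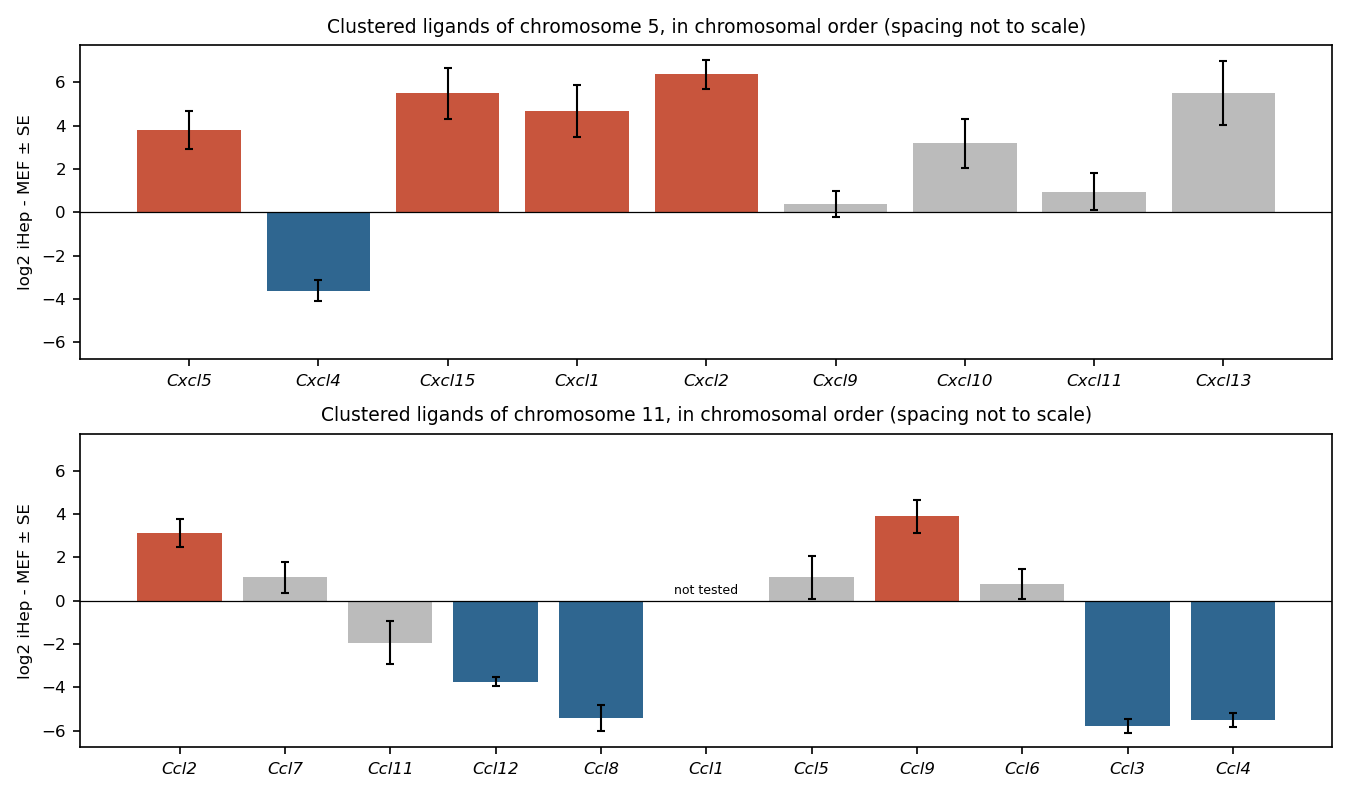
Log2 difference of iHep against MEF with standard errors (limma) for clustered ligands of chromosomes 5 and 11, in chromosomal order with spacing not to scale. Red bars were called higher, blue bars lower, and grey bars not called: Cxcl4 at -3.62 stands between Cxcl5 at 3.82 and Cxcl15 at 5.49, and Ccl9 at 3.90 stands 2 places before Ccl3 at -5.79.

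Between the iHep types, which have 1 array each and were not tested, 24 ligands were well above background on at least 1 iHep array. The highest level fell to 4α2 for 13 of them, to 4α1 for 6 and to 4α3 for 5. The lowest fell to 4α3 for 15, to 4α1 for 5 and to 4α2 for 4. Cxcl1 and Cxcl13 ran against that order, both lowest in 4α2, while Cxcl10, Ccl9, Ccl2, Cxcl2 and Cxcl15 were highest in 4α2. The log2 summed signal of all 34 ligands was 7.44, 7.91 and 6.75 in 4α1, 4α2 and 4α3, against 6.31 to 6.59 on the MEF arrays and 5.98 in the hepatocyte. Ccl2, at 6.67 and 7.14, made up most of the sum in 4α1 and 4α2. Cxcl12, at 5.89 and 5.32, made up most of it on MEF 1 and in the hepatocyte, so the sum does not describe the ligands as a whole.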

How the data were processed

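RNA of 3 MEF samples, 3 iHep types and 1 hepatocyte sample was hybridised to Agilent 1-colour arrays, 1 per sample. Per the file headers, the scanner software was Agilent Feature Extraction 9.5.1.1, with background subtraction. The deposited processed signal is an intensity on a linear scale, not scaled between arrays. The deposited mean and background intensity served the normexp alternative (offset 50). Deposited 0 or 1 flags, a unit other than a measurement, mark spots as outliers, saturated or well above background. The authors also deposited a table of intensity values, whose columns share 1 distribution (medians 66.3 to 66.4, r = 0.9988 to 0.9999 with the scanner log2 signal of the same array). How it was made is not stated in the labels, and it served as an alternative.

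Outlier spots (66 to 104 per array of 43379) were left out and repeated spots averaged. Log2 levels were computed from the deposited intensity, minus each array's 75th percentile, and the brightest probe stood for a gene. Genes with a group whose arrays all read above background (19133 of 27583) were fitted in limma 3.58.1 (R 4.3.3, lmFit and eBayes, 3 groups in 1 fit), with Benjamini-Hochberg adjustment and calls under 0.05. The fit was run on simulated data with large planted changes and a reduced spread, which does not check differences near the threshold. Errors are SE. The series describes the MEF samples as prepared separately and says no such thing of other samples, so p-values cover only the spread found here, which may be technical. The number of arrays limits precision.

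Averaging MEF 2 and MEF 3 followed the noise in signals above 1000, a limit set after the ratios were seen. With 3 separate MEF samples, 11 ligands were higher and 7 lower in iHep. Positions are those of the array annotation (mm8). Promoters are RefSeq's. The ligands, gene lists and tests were chosen with earlier results of these data known. Named were all ligands, with every array's value for those that passed a test against MEF or spanned over 4 log2 units between types, and other genes only from the lists. The array values of Cxcl10, Cxcl12, Cxcl16 and some list genes were added after they were seen. The replicate numbers did not pair MEF with iHep samples (correlations of deviations 0.03, -0.02 and 0.00).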

Additional observations from a re-analysis of the deposited data

How the results depend on the processing

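Counts of called ligands stayed within 1.5 times the main count in all 3 comparisons under the alternatives run, 16 for iHep against MEF and 15 for each hepatocyte comparison, except for the 9 ligands higher in iHep than in MEF, of which 4 were called within slide 1 and which ran from 4 to 9 when 1 replicate was left out. With 3 separate MEF samples Cxcl10 and Cxcl13 were gained as higher and Cxcl12 as lower in iHep, and with the replicate block Cxcl13 and Cxcl12. The numbers do not pair the samples, and the replicate block changed the counts in iHep from 11 higher and 7 lower to 10 higher and 7 lower. Normexp moved the split in the hepatocyte against MEF from 6 higher and 10 lower to 7 and 7. Quantile normalization moved the median of all genes from 0.15 to 0.00 in the hepatocyte against MEF and from -0.17 to 0.02 in iHep against the hepatocyte. Signs turned only for differences that were not called. In iHep against MEF these were Ccl19 (0.13 with the mean of probes), Ccl24 (-0.11 with normexp, -0.17 within slide 1, -0.17 to 0.17 when 1 replicate was left out, the negative ones without MEF 2 and MEF 3 or without iHep 4α1, at -0.07), Ccl25 (0.00 within slide 1 and without MEF 2 and MEF 3) and Cxcl9 (-0.41 for both). In the hepatocyte against MEF they were Ccl17 (0.20 with normexp) and Cxcl12 (0.13 with 3 MEF samples, 0.49 without MEF 1, otherwise -0.58 to -0.05 with 1 replicate left out). In iHep against the hepatocyte they were Ccl12 (0.17 with quantile normalization, 0.19 with the deposited table) and Ccl8 (0.11 with each, 0.26 without iHep 4α3, otherwise -0.68 to -0.31 with 1 replicate left out). Fewer samples enter the slide and left-out fits, and otherwise the cause was not tested. Dim probes limit the fold of Cxcl2, Cxcl5, Cxcl9, Cxcl11, Cxcl13, Cxcl15, Ccl3, Ccl4, Ccl8, Ccl11, Ccl12 and Ccl24 to bounds in some comparisons. Normexp gave smaller fitted differences there. In iHep against the hepatocyte that of Cxcl5 went from 11.95 to 7.3, and that of Cxcl15 from 9.61 to 5.03.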

Other observations

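A pair of CXC ligands lies outside the naming rule, because the scanner files call them by older names, and they were chosen after their values were seen. Cxcl17, which the files name BC024561, is a mucosal CXC-type protein. It read -6.61, -6.17 and -8.63 on the MEF arrays, where only MEF 2 was above background, and 3.93, 2.33 and 5.52 in iHep 4α1, 4α2 and 4α3. The hepatocyte level of -7.78 was not above background. The difference in iHep was 10.93 ± 0.96 (adjusted p = 0.00296), larger than that of any of the 29 tested ligands that follow the rule, and iHep was at least 821.3-fold above the hepatocyte (adjusted p = 0.00184).

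Cxcl3, an ELR ligand that the files name Gm1960, was not tested. It was above background only in iHep 4α1, at -3.14, and 4α2, at -4.86. It was not above background in 4α3 (-8.10), in the hepatocyte (-8.01) or in MEF (-9.10 to -7.24). Ppbp, the ELR ligand of platelets, read -0.66, -1.78 and -1.79 in MEF and -4.70, -2.41 and -6.18 in iHep, a difference of -3.20 ± 1.15 that was not called (adjusted p = 0.111).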
